A study of Mus musculus with 6 samples.

Results

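The genes of the growth hormone (GH) and insulin-like growth factor 1 (IGF1) axis were examined in liver RNA-seq libraries of 3 wild-type (WT) and 3 *Fmo5*-/- mice, 1 library per mouse. The group comprised 10 genes, *Ghr*, *Igf1*, *Igfals*, *Igfbp1*, *Igfbp2*, *Igfbp3*, *Socs2*, *Cish*, *Stat5a* and *Stat5b*, taken by gene symbol from the 54446 genes of the deposited tables. The mice, male and 32 weeks old, are labelled C57BL/6, and the study's methods give the strain as C57BL/6J. The *Fmo5*-/- mice lack a functional gene for flavin-containing monooxygenase 5 (FMO5), a liver and gut enzyme, from conception and in every tissue, and no group received an agent. Both genotypes ate standard chow without restriction, and liver was taken in the morning. Each of the 10 genes passed the filter on low counts that left 16734 genes for testing.

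GH from the pituitary binds its receptor, GHR, on the hepatocyte, and the associated kinase JAK2 then phosphorylates STAT5A and STAT5B, which enter the nucleus and switch on target genes. Among these targets are *Igf1* and *Igfals*, whose products leave the liver for the blood, and *Socs2* and *Cish*, whose products shut the receptor signal off again. In male rodents GH is released in pulses, so that hepatic STAT5 is active for a time and then silent, whereas *Igfbp1* and *Igfbp2*, which encode binding proteins that hold IGFs away from their receptor, are known to follow feeding and insulin.

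Of the 10 genes, *Igfbp2* was the only one that differed between the genotypes by edgeR's quasi-likelihood test, at an adjusted p under 0.05, and it was higher in *Fmo5*-/- mice. By the same rule 1.37% of all tested genes were called in either direction, 0.675% as higher and 0.693% as lower. *Igf1*, the main hormone of the axis, and *Ghr* did not pass the test. *Cish* and *Igfbp1* in both genotypes and *Socs2* in WT mice differed several-fold between mice, and no genotype difference was detectable for them.

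Stretches from before annotated transcription starts are shown first, for the called gene *Igfbp2* and for the members that held a searched motif. They come from RefSeq promoter windows on GRCm38.p6 (the same genome as mm10), 250 bases long, and those shown are on the plus strand. Windows were present for 9 of the 10 genes, 15 windows in all, and for *Socs2* there was none. Each window was searched on both strands for TTCNNNGAA, the palindromic core to which STAT5 binds, and for CAAAACA, the core of the insulin response element. The motifs do not overlap each other in these windows. Of the 32817 windows of all genes, 7.01% held TTCNNNGAA and 5.56% held CAAAACA. Capitals mark the motif. TTCNNNGAA was found in 2 of the 3 *Igfals* windows and in no window of another member. CAAAACA was found in the window of *Igfbp1* alone among the 9 genes. The *Igfbp2* stretch is chr1:72824230-72824479, the *Igfbp1* stretch chr11:7197537-7197781, and the *Igfals* stretches are chr17:24877598-24877626 and chr17:24878163-24878191. The *Igfals* windows precede RefSeq starts that lie 11847 and 12234 bases inside the gene as its coordinates are given below, so they are internal to that gene model. Because the annotation places exons of *Igfals* in its windows, only the motif and 10 bases to either side are given, and the *Igfbp1* stretch ends before its first exon. The *Igfbp2* stretch held neither motif.
*Igfbp2*: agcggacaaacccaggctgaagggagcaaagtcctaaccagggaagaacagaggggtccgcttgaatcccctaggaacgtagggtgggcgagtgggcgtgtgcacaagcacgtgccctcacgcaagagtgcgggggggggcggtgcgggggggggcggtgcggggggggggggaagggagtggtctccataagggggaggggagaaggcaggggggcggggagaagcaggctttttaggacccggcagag
*Igfbp1*: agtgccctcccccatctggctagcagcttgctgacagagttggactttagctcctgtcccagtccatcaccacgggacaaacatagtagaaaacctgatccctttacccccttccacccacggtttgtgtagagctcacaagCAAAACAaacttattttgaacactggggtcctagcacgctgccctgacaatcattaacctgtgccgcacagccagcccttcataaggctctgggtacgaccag
*Igfals* first site: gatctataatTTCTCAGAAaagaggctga
*Igfals* second site: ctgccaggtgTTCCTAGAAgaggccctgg
A match is a description of letters only, and its absence from a window says nothing of binding elsewhere in the gene.

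Values are normalized counts unless stated otherwise, that is, counts divided by the library size scaled with edgeR's TMM factors and multiplied by the mean of the 6 scaled sizes. Libraries held 44886286 to 52338675 counts on genes, so that a count of 0 would allow up to 3 counts, or 0.0573 to 0.0668 CPM (counts scaled to the library total), at 95% confidence and for counting error only. *Fmo5* itself lay between 30239.7 and 39808 in WT mice and between 1071 and 1194 in *Fmo5*-/- mice. For the sums of markers, CPM was taken over the library size scaled with the TMM factors instead of the library total. The hepatocyte markers, 10 of 10 of which were detected, summed to 111582 to 142824 CPM in WT mice and 113930 to 140537 CPM in *Fmo5*-/- mice. Markers of Kupffer cells, the resident macrophages of liver, were higher in *Fmo5*-/- mice in 10 of 10 genes, with sums of 241 to 287 CPM in WT and 379 to 684 CPM in *Fmo5*-/- mice, and 1 of them, *Clec4f*, named because of it, passed edgeR's test, while 10 had an unadjusted p under 0.05 (21.8% of all tested genes) and DESeq2 called 9 (8.96% of all). EdgeR's count for these markers moved with the library left out, and it called 10 of 10 without *Fmo5*-/- mouse 3, the lowest of its genotype in each, and 0 to 1 without another library, *Clec4f* itself being called in 2 of the 6 fits. Calls over all genes moved too, with 763 without *Fmo5*-/- mouse 3 and 31 to 148 without another library, beside 229 with all 6. Lymphocyte markers were higher in 8 of 8 genes, with sums of 13.7 to 19.7 CPM and 20.3 to 44.7 CPM, and edgeR called 0 of these, with 5 at an unadjusted p under 0.05, and DESeq2 called 3. Of 37 tested markers of hepatocytes, endothelial cells, stellate cells and bile duct cells, edgeR called 0, with 5 at an unadjusted p under 0.05, and DESeq2 called 1. The part of these shifts in the results that follow was not tested. In whole liver, fewer cells of a type and less RNA per cell cannot be told apart.

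The first member in the order of the pathway is the receptor. *Ghr* (ENSMUSG00000055737.12, chromosome 15, 3317760 to 3583492, minus strand) encodes GHR, and in mice a shorter transcript of the same gene gives the GH-binding protein of plasma, which gene counts do not separate from it. Normalized counts of *Ghr* were 29349.8, 31199.9 and 28763 in WT mice 1, 2 and 3, and 28022, 24776 and 27520.5 in *Fmo5*-/- mice 1, 2 and 3. Every *Fmo5*-/- mouse lay below every WT mouse, but the gap was narrow. The means of 29771 ± 1272 and 26773 ± 1747 (SD, n = 3 each) gave a log2 fold change of -0.15 (95% confidence interval -0.36 to 0.05), and edgeR's adjusted p was 0.366. *Ghr* was thus not called. *Ghr* was the second most abundant member per length and the steadiest of the 10 between mice of a genotype.

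*Stat5a* and *Stat5b* encode the pair of transcription factors that carry the signal to the nucleus, STAT5B being the more abundant form in liver. They are neighbours on chromosome 11, at 100859351 to 100885169 for *Stat5a* (ENSMUSG00000004043.14, plus strand) and 100780731 to 100850724 for *Stat5b* (ENSMUSG00000020919.11, minus strand), with a gap of 8627 bases. *Stat5a* had normalized counts of 1109.9, 838 and 1190.1 in WT mice and 1004, 976 and 807 in *Fmo5*-/- mice, and the genotypes overlapped. Its log2 fold change was -0.17 (standard error 0.140, edgeR adjusted p = 0.525). *Stat5b* had 3812, 3157 and 3976 in WT mice and 3883, 3694 and 3479 in *Fmo5*-/- mice, again with overlap, and a log2 fold change of 0.01 (95% confidence interval -0.21 to 0.24, edgeR adjusted p = 0.951). Both STAT5 genes stood in the same order of mice in each genotype, highest in WT mouse 3 and *Fmo5*-/- mouse 1 and lowest in WT mouse 2 and *Fmo5*-/- mouse 3. Per kilobase of exon, the level of *Stat5b* was 4.30 to 4.85 times that of *Stat5a* in WT mice and 4.88 to 5.55 times in *Fmo5*-/- mice. These ratios differed by 0.610 in mean and were separated narrowly. An exact permutation test gave p = 0.1, the smallest it can give for 3 mice against 3, so it cannot decide whether they differ. The coding sequences of this pair are nearly identical in places, reads that map to both were left out by the counting, and exons of *Stat5a* overlap those of *Stat3* on the other strand, so these levels are uncertain.

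*Socs2* and *Cish* encode cytokine-inducible SH2 proteins that bind the activated receptor and end its signal, and both are switched on directly by STAT5. For *Socs2* (ENSMUSG00000020027.18, chromosome 10, 95385362 to 95417180, minus strand), normalized counts were 131, 1626 and 356 in WT mice and 1038, 1264 and 2069 in *Fmo5*-/- mice. WT mouse 2 was thus above *Fmo5*-/- mice 1 and 2, and WT mice 1 and 3 were below all other mice. Among the WT mice the highest value was 12.4 times the lowest, and among the *Fmo5*-/- mice 1.99 times. The means, 704 ± 806 and 1457 ± 542 (SD, n = 3 each), gave a log2 fold change of 1.05 with a 95% confidence interval from -1.54 to 3.65 (edgeR adjusted p = 0.602), so that a difference of this size was not detectable. Leaving out WT mouse 2 moved the estimate to 2.58 and leaving out WT mouse 1 moved it to 0.57, and edgeR's adjusted p was 0.188 to 0.816 over the 6 fits without 1 library.

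*Cish* (ENSMUSG00000032578.7, chromosome 9, 107296026 to 107302784, plus strand) had normalized counts of 279.6, 1115 and 806 in WT mice and 307, 1541 and 2567 in *Fmo5*-/- mice. The lowest mouse of each genotype was close to the other, and *Fmo5*-/- mice 2 and 3 were above all WT mice. The highest mouse had 3.99 times the lowest in WT and 8.35 times in *Fmo5*-/- mice. The means of 733 ± 422 and 1472 ± 1132 gave a log2 fold change of 1.01 (95% confidence interval -1.45 to 3.46, edgeR adjusted p = 0.597). Without *Fmo5*-/- mouse 3 the log2 fold change was 0.33, and without *Fmo5*-/- mouse 1 it was 1.49. Exons of *Cish* overlap those of *Gm17040*, a pseudogene, and *Gm17041*, an antisense gene, both on the other strand, and since the counts are without strand, reads of these cannot be told apart.

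**Figure D1:**
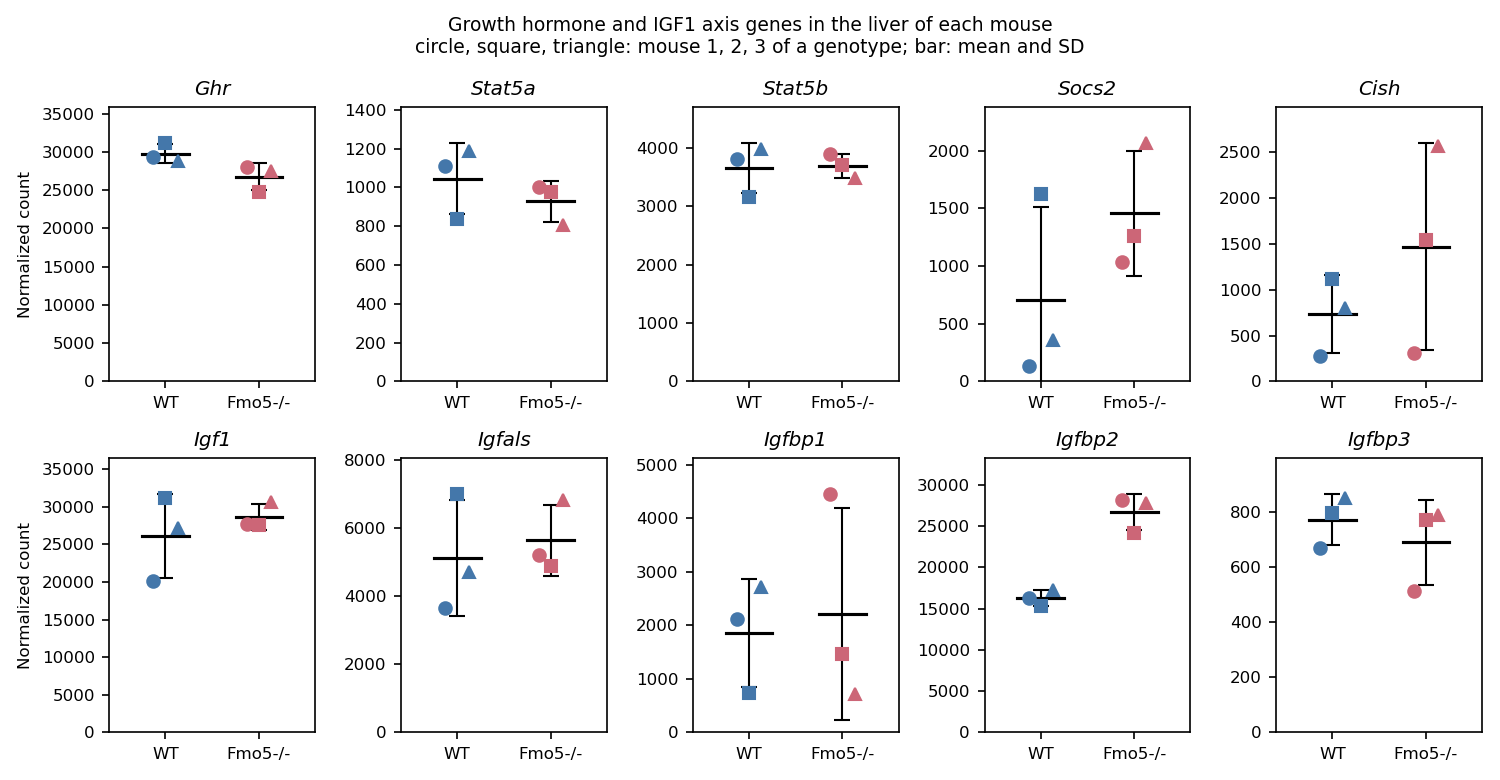
Normalized counts (y axis, from 0) of the 10 genes in 3 WT (blue) and 3 *Fmo5*-/- mice (red), where circle, square and triangle are mice 1, 2 and 3 of a genotype and bars show the mean and SD, the lower SD of *Socs2* in WT mice being cut at 0. The genotypes separate for *Igfbp2* and, narrowly, for *Ghr*, while *Cish* and *Igfbp1* scatter widely within each genotype and *Socs2* does so in WT mice.

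The secreted products of the axis are the hormone and its carriers. *Igf1* (ENSMUSG00000020053.18, chromosome 10, 87858265 to 87937042, plus strand) encodes IGF1, most of which in plasma comes from liver. Its normalized counts were 20109.8, 31158 and 27109 in WT mice and 27683, 27549 and 30625 in *Fmo5*-/- mice. WT mice thus held both the lowest and the highest value, and the 3 *Fmo5*-/- mice lay between them. The means were 26126 ± 5589 and 28619 ± 1738 (SD, n = 3 each). EdgeR put the log2 fold change at 0.13, with a standard error of 0.15 and an adjusted p of 0.658. The 95% confidence interval of the fold, 0.866 to 1.39, leaves room for a modest change in either direction. The log2 fold change was 0.28 without WT mouse 2 and -0.0196 without WT mouse 1. The transcript *Igf1os* lies on the other strand within the gene without sharing exons with it.

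*Igfals* (ENSMUSG00000046070.8, chromosome 17, 24865997 to 24882010, plus strand) encodes the acid-labile subunit, which binds IGF1 and IGFBP3 into a complex that lasts long in plasma. It had normalized counts of 3660.0, 7014 and 4708 in WT mice and 5208, 4890.4 and 6829 in *Fmo5*-/- mice, and the genotypes overlapped throughout. The log2 fold change was 0.14 (95% confidence interval -0.46 to 0.73, edgeR adjusted p = 0.799). It was 0.44 without WT mouse 2, and its sign turned without WT mouse 1 (-0.0475) and without *Fmo5*-/- mouse 3 (-0.0245). *Igfals*, the member whose internal windows held TTCNNNGAA, shared the order of mice of *Igf1* within each genotype.

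*Igfbp3* (ENSMUSG00000020427.11, chromosome 11, 7206086 to 7213923, minus strand) encodes the main IGF carrier of plasma, which in liver is made mostly by cells other than hepatocytes. It had 670.4, 797 and 853 normalized counts in WT mice and 512, 771 and 788 in *Fmo5*-/- mice. Apart from the low value of *Fmo5*-/- mouse 1, the *Fmo5*-/- values lay within the WT range, and the log2 fold change was -0.16 (edgeR standard error 0.170, adjusted p = 0.623). The estimate for *Igfbp3* turned to 0.01 without *Fmo5*-/- mouse 1.

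*Igfbp1* (ENSMUSG00000020429.7, chromosome 11, 7197782 to 7202546, plus strand) lies 3540 bases from *Igfbp3* and encodes a short-lived carrier that liver makes in fasting and that insulin represses. Its normalized counts were 2116, 738 and 2708 in WT mice and 4458, 1463 and 725 in *Fmo5*-/- mice. The highest and the lowest of the 6 values were both from *Fmo5*-/- mice, 6.15 times apart, and the WT mice spanned 3.67 times. The means were 1854 ± 1011 and 2215 ± 1977 (SD, n = 3 each), and the log2 fold change of 0.26 had a 95% confidence interval from -2.03 to 2.55 (edgeR adjusted p = 0.897). Its sign turned without *Fmo5*-/- mouse 1, to -0.76, and without WT mouse 2, to -0.13.

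*Igfbp2* (ENSMUSG00000039323.18, chromosome 1, 72824503 to 72852474, plus strand) encodes the carrier that is, after IGFBP3, a main IGF-binding protein of plasma. It was the most abundant member per length. Its normalized counts were 16239, 15302 and 17257 in WT mice and 28145, 24223 and 27867 in *Fmo5*-/- mice. The lowest *Fmo5*-/- mouse was well above the highest WT mouse, and within each genotype the mice were close to one another. *Igfbp2* rose from 16266 ± 978 to 26745 ± 2189 (SD, n = 3 each), which is 1.64-fold (95% confidence interval 1.41 to 1.91) or a log2 fold change of 0.72 (standard error 0.0974, edgeR adjusted p = 0.0151). DESeq2, which called 8.96% of the genes it tested, also called *Igfbp2* (adjusted p = 1.87e-08) and no other member. With 1 library left out, the log2 fold change of *Igfbp2* stayed between 0.68 and 0.78. EdgeR's adjusted p for *Igfbp2* was 0.0663 without WT mouse 1, 0.05004 without WT mouse 2 and 0.0771 without *Fmo5*-/- mouse 1, so the call was lost there. Those fits also called the fewest genes of all, 62, 82 and 31 in the same order, beside 106 to 763 without another library. Why the call was lost was not tested. The Kupffer cell markers given above moved in the same direction as *Igfbp2*, and their part in it was not tested.

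**Figure D2:**
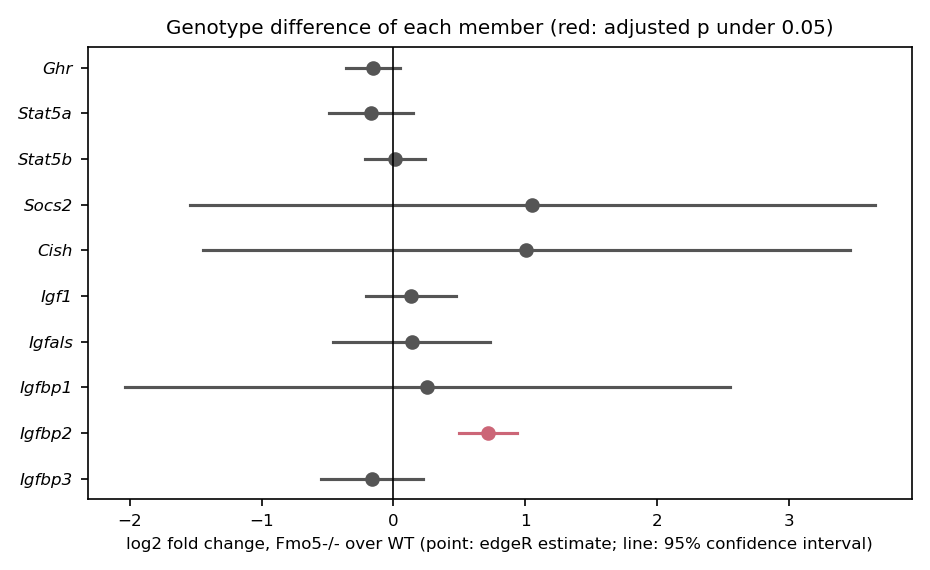
Log2 fold change, *Fmo5*-/- over WT (x axis), of the 10 genes from edgeR (points) with 95% confidence intervals (lines), red where the adjusted p is under 0.05. Only the interval of *Igfbp2*, 0.50 to 0.94, lies clear of 0, and those of *Socs2*, *Cish* and *Igfbp1* are the widest.

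Over the 10 genes, 7 had a higher and 3 a lower mean in *Fmo5*-/- mice, and the median of their log2 fold changes was 0.13 beside 0.0058 over all tested genes. Each of the 10 had a mean normalized count of 500 or more, and over the 7819 tested genes at that level the median was -0.0622. The genotypes did not overlap for 2 of the 10, *Igfbp2* and *Ghr*, and for 27.4% of all tested genes, so this count was no greater than the background. At an unadjusted p under 0.05 from edgeR, *Igfbp2* was again the single member, among 3647 genes of all tested.

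Levels of the genes were compared per kilobase of exon and scaled library size (RPKM, computed here from the counts). In WT mice the order from high to low was *Igfbp2*, *Ghr*, *Igf1*, *Igfals*, *Igfbp1*, *Stat5b*, *Igfbp3*, *Stat5a*, *Cish* and *Socs2*. *Igfbp2* stood apart at 180.5 ± 10.8 RPKM in WT and 297 ± 24.3 RPKM in *Fmo5*-/- mice (SD, n = 3 each). *Ghr*, at 67.4 ± 2.88 and 60.6 ± 3.96 RPKM, and *Igf1*, at 54.1 ± 11.6 and 59.2 ± 3.60 RPKM, came next. Their WT values did not overlap by a small margin, and their *Fmo5*-/- values did. *Igf1* overlapped *Igfals* (33.2 ± 11.1 RPKM in WT) in WT mice but not in *Fmo5*-/- mice. *Igfals* overlapped *Igfbp1* (24.9 ± 13.6 RPKM in WT), and *Igfbp1* overlapped *Stat5b* (13.5 ± 1.6 RPKM in WT), in both genotypes. *Stat5b* lay above *Igfbp3* (5.06 ± 0.612 RPKM in WT) and *Igfbp3* above *Stat5a* (3.01 ± 0.530 RPKM in WT) without overlap. *Stat5a*, *Cish* (2.34 ± 1.35 RPKM in WT) and *Socs2* (1.51 ± 1.73 RPKM in WT) overlapped one another. In *Fmo5*-/- mice the first 6 places were the same. There *Cish*, at 4.70 ± 3.61 RPKM, had a higher mean than *Igfbp3*, at 4.52 ± 1.01 RPKM, and their ranges overlapped. *Cish* and *Socs2*, the latter at 3.13 ± 1.16 RPKM, also had higher means than *Stat5a* at 2.67 ± 0.306 RPKM, with overlap of both ranges with that of *Stat5a*.

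The members differed widely in their spread between mice of a genotype. It was measured as the SD of log2 normalized counts (with 0.5 added) within genotypes, and ranked among the 7819 tested genes whose normalized counts averaged 500 or more. The median of these genes was 0.115. *Cish*, at 1.35, and *Socs2*, at 1.34, ranked 7 and 8 from the top, and *Igfbp1*, at 1.17, ranked 16. Higher than *Cish* were *Hamp*, *Onecut1*, *Gadd45g*, *Serpina4-ps1*, *Alas1* and *Hcn3*, which are named because of this rank. *Igfals*, with an SD of 0.380, exceeded 96.6% of the genes, *Igfbp3* (0.278) 92.8%, *Igf1* (0.236) 89.3% and *Stat5a* (0.225) 88.1%. *Stat5b* (0.137), *Igfbp2* (0.105) and *Ghr* (0.0804) were in the bulk, above 63.0%, 43.1% and 24.6% of genes. Inhibitors of the receptor were thus the most variable members and the receptor the least.

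**Figure D3:**
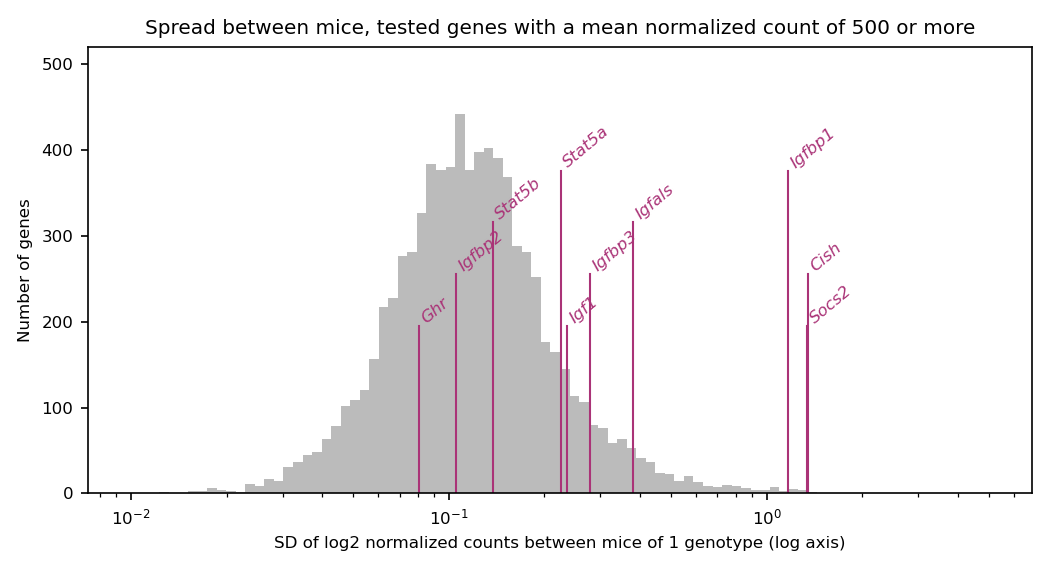
SD of log2 normalized counts between mice of 1 genotype (x axis, log scale) for the 7819 genes with a mean of 500 or more (grey, number of genes on the y axis), with the 10 members marked by lines whose heights carry no value. *Socs2*, *Cish* and *Igfbp1* lie at the far right, at 1.17 to 1.35, against a median of 0.115.

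The order of the mice was compared between the members. *Socs2* and *Cish* had 1 order, with WT mouse 2 above 3 above 1 and *Fmo5*-/- mouse 3 above 2 above 1, which 2.6% of the 7819 genes shared. *Igf1* and *Igfals* had the same WT order and, in *Fmo5*-/- mice, 3 above 1 above 2 (3.45% of genes). *Igfbp1*, *Stat5a* and *Stat5b* stood in the exact reverse of the *Socs2* order in *Fmo5*-/- mice, and in WT mice were highest in mouse 3 and lowest in mouse 2 (2.08% of genes). *Igfbp3*, more variable than *Igf1*, shared its order (3 above 2 above 1 in both genotypes) with no other member, and 1.98% of genes had it. *Ghr* (10.9% of genes) and *Igfbp2* (3.08%) also had an order that no other member shared. With 3 mice a genotype there are few possible orders, each shared by many genes, and these orders are a description only.

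Of the other listed genes with large spread, *Onecut1*, *Egfr* and *Bcl6* were picked after their values were seen because their orders were close to these. Others differed, as *Irs2* and *Pck1* had the order of no member over both genotypes and *Socs3* had that of *Igfbp3*. *Onecut1*, a liver transcription factor that GH induces, had normalized counts of 110.1, 2562 and 202 in WT mice and 333, 1313 and 2641 in *Fmo5*-/- mice. *Egfr*, the EGF receptor gene and a GH-dependent gene in males, had 7575, 30030.5 and 14894 in WT mice and 27874, 18499 and 30880.1 in *Fmo5*-/- mice. Both were highest in WT mouse 2 and *Fmo5*-/- mouse 3, as were *Socs2*, *Cish*, *Igf1* and *Igfals*. *Bcl6*, which encodes a repressor and is itself turned down by STAT5 in liver, had 2117, 859 and 3098 in WT mice and 4272, 955 and 1075 in *Fmo5*-/- mice. It was thus highest in WT mouse 3 and *Fmo5*-/- mouse 1, the mice that were also highest for *Igfbp1*, *Igfbp2*, *Stat5a* and *Stat5b*, and its full order was that of *Igfbp2*. *Onecut1*, *Egfr* and *Bcl6* did not pass edgeR's test between genotypes, with adjusted p of 0.866 for *Onecut1*, 0.619 for *Egfr* and 0.979 for *Bcl6*.

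**Figure D4:**
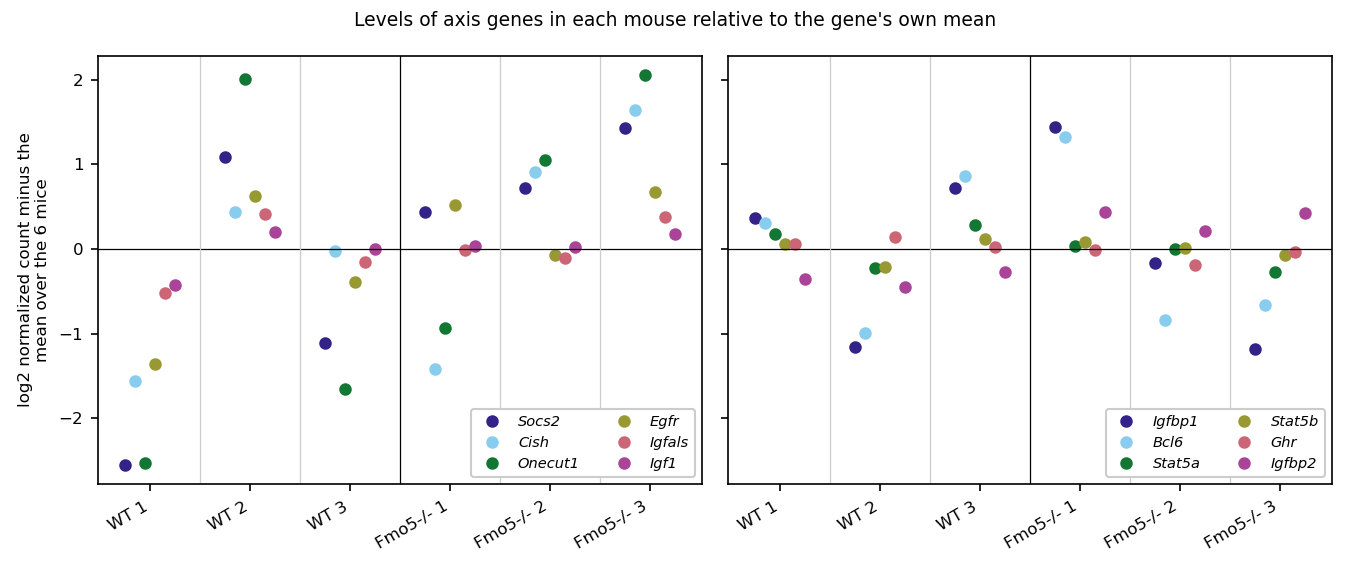
Log2 normalized count of each gene in each of the 6 mice (x axis) minus the gene's mean over the mice (y axis), with points spread sideways by gene. The genes were put into the panels with their values known, and *Igfbp3*, with another order, is not shown. In the left panel WT mouse 1 is lowest and WT mouse 2 highest of the WT mice for all 6 genes, which follows from that choice. In the right panel *Igfbp1* and *Bcl6* are the lowest of the WT mice in WT mouse 2 and highest of all in *Fmo5*-/- mouse 1. *Ghr*, *Stat5b* and *Igfbp2* vary little within a genotype.

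By the mean absolute difference of centred log2 normalized counts over the 6 libraries, the genes most like *Igf1* among 7818 others were *H2-K2* (0.0501), *Ttc39c* (0.0513) and *Ubald1* (0.0515). *Ttc39c*, for example, had 19819, 31272 and 26772 normalized counts in WT mice and 24626, 25821 and 28993 in *Fmo5*-/- mice, with the same low WT mouse 1 as *Igf1*.

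The other genes of GH signalling were taken as a list of 25, all of which were tested, with 14 higher and 11 lower in mean and a median log2 fold change of 0.13. EdgeR called 0 of them, with 5 genes at an unadjusted p under 0.05, and DESeq2 called 2. Over all tested genes, edgeR called 1.37%, 21.8% had an unadjusted p under 0.05 and DESeq2 called 8.96%, so the counts of this list were near the background, and the counts of the lists that follow are to be read against the same shares. *Socs1*, which encodes a JAK inhibitor and had the smallest edgeR p, was called by DESeq2. It had normalized counts of 26.5, 24.5 and 22.5 in WT mice and 41.9, 88.1 and 42.2 in *Fmo5*-/- mice, a log2 fold change of 1.23 (edgeR adjusted p = 0.0908). The genotypes did not overlap for *Socs1*, and *Fmo5*-/- mouse 2 stood out. That mouse also had the highest sum of the lymphocyte markers, and their part in the *Socs1* values was not tested. *Ptpn1*, encoding a phosphatase that acts on JAK2, had a log2 fold change of 0.31 (edgeR adjusted p = 0.140), and *Sh2b2*, encoding an adaptor of JAK2, one of 0.44 (edgeR adjusted p = 0.213). *Jak2* itself, the kinase of the receptor, is added for that role and not by its p, with its values known. It had 1126, 931 and 832 in WT mice and 1059, 852 and 887 in *Fmo5*-/- mice and a log2 fold change of -0.05 (edgeR adjusted p = 0.872), with overlap between the genotypes.

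The other genes of the IGF system were a list of 15, of which 11 were tested and *Igf2*, *Pappa*, *Pappa2* and *Stc1* were too low. Of the 11, 6 were higher and 5 lower in mean, with a median log2 fold change of 0.05, and edgeR and DESeq2 called 0, with 1 gene at an unadjusted p under 0.05 in edgeR. That gene was *Igf1r*, the receptor of IGF1, which hepatocytes hardly make, at 146, 124 and 167 normalized counts in WT mice and 179, 227 and 174 in *Fmo5*-/- mice (log2 fold change 0.41, edgeR adjusted p = 0.220). *Igf2bp2* (0.57, edgeR adjusted p = 0.266), *Stc2* (1.07, edgeR adjusted p = 0.284, and 0.64 to 2.02 with 1 library left out, at 2 to 19 counts) and *Htra1* (-0.34, edgeR adjusted p = 0.540) followed by p. None of the binding proteins *Igfbp4*, *Igfbp5*, *Igfbp6* and *Igfbp7* passed the test that *Igfbp2* passed, and *Igfbp4*, a carrier that hepatocytes make in quantity and that was picked after its values were seen, was at 49066 to 60836 normalized counts in WT mice and 53235 to 56520.4 in *Fmo5*-/- mice.

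Genes that depend on the sex-specific pattern of GH in liver were described as lists of 20 male-biased and 24 female-biased genes. Of the male-biased genes 20 were tested, 7 higher and 13 lower in mean, with a median log2 fold change of -0.11, and edgeR called 0, with 4 at an unadjusted p under 0.05, and DESeq2 called 2 as lower. *Selenbp2*, the selenium-binding protein gene with the smallest p, had normalized counts of 3818, 26125 and 23009 in WT mice and 177, 202 and 453 in *Fmo5*-/- mice (log2 fold change -6.00, edgeR adjusted p = 0.0736). Its genotypes were far apart, and it lies 2.92 Mb from *Fmo5* on chromosome 3, so that linkage to the altered locus and the genotype cannot be told apart. *Serpina12* (-0.76, edgeR adjusted p = 0.165), *Cyp2u1* (-0.33, edgeR adjusted p = 0.167) and *C8a* (0.30, edgeR adjusted p = 0.179) followed. The 2 genes that DESeq2 called were *Selenbp2* (DESeq2 adjusted p = 6.32e-10) and *Serpina12* (DESeq2 adjusted p = 0.00778). With 1 library left out, edgeR called *Selenbp2* in 1 fit, with adjusted p of 0.0384 to 0.245 over these fits. The female-biased list had 15 tested genes, 6 higher and 9 lower in mean, with a median log2 fold change of -0.31, and the other 9 were too low to test. EdgeR called 0, with 3 at an unadjusted p under 0.05, and DESeq2 called *Ntrk2* alone. *Ntrk2*, a neurotrophin receptor gene, had a log2 fold change of -0.87 (edgeR adjusted p = 0.112), followed by *Cyp2c40* (-0.63, edgeR adjusted p = 0.125) and *Cyp2c69* (-0.92, edgeR adjusted p = 0.133), members of a P450 family with near-identical copies, and *Cyp2a4* (0.97, edgeR adjusted p = 0.290).

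The major urinary proteins, pheromone carriers that male liver makes under pulsed GH, are encoded by 22 *Mup* genes, all of which were tested. In mean 22 of 22 were lower in *Fmo5*-/- mice, the median of the log2 fold changes being -0.97, and in 15 of 22 the genotypes did not overlap, beside 27.4% of all tested genes. EdgeR called 2 of them (1.37% of all), with 14 at an unadjusted p under 0.05 (21.8% of all), and DESeq2 called 13 (8.96% of all). *Mup15* had 56.1, 181 and 97.1 normalized counts in WT mice and 22.4, 11.9 and 18.7 in *Fmo5*-/- mice (log2 fold change -2.65, edgeR adjusted p = 0.0430). *Mup10* had 90.02, 136 and 113 in WT mice and 53.1, 32.1 and 50.1 in *Fmo5*-/- mice (log2 fold change -1.33, edgeR adjusted p = 0.0468). These 2 fell, but with 1 library left out each was called in 1 of 6 fits, *Mup15* without WT mouse 1 and *Mup10* without *Fmo5*-/- mouse 3, with adjusted p of up to 0.130 and 0.121 in the others. *Mup10* also lost the call with counts of 1 strand (edgeR adjusted p = 0.178). *Mup3*, picked after its values were seen, at 449140.0 to 484676 in WT mice and 313888 to 456733 in *Fmo5*-/- mice, had a log2 fold change of -0.25 (edgeR adjusted p = 0.326). *Mup* genes are near-identical copies of each other, so the split of reads between them is uncertain, and they are not independent counts.

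FOXO genes and genes that FOXO1 drives or insulin represses, the group to which *Igfbp1* belongs, were a list of 18 others (with *Bcl6* and *Irs2*, also listed above), all tested, with 4 higher and 14 lower in mean and a median log2 fold change of -0.18. EdgeR called 2 of these, both lower, with 5 at an unadjusted p under 0.05, and DESeq2 called 3, all lower, the third being *Gadd45a*, which is named because of that call. *Trib1*, a pseudokinase gene, had 2621, 2474 and 2304 normalized counts in WT mice and 1552, 1741 and 1796 in *Fmo5*-/- mice (log2 fold change -0.54, edgeR adjusted p = 0.0293). *Fgf21*, which encodes a hormone that liver releases in fasting, had 157, 102 and 107 in WT mice and 42.9, 14.7 and 41.2 in *Fmo5*-/- mice (log2 fold change -1.89, edgeR adjusted p = 0.0494). Both fell without overlap, but with 1 library left out each was called in 2 of 6 fits, *Trib1* without WT mouse 3 or *Fmo5*-/- mouse 3 and *Fgf21* without *Fmo5*-/- mouse 2 or 3, with adjusted p of up to 0.121 and 0.141 in the others. *Trib1* also lost the call with a mean of 500 or more before the fit (edgeR adjusted p = 0.0610), and *Fgf21* with counts of 1 strand (edgeR adjusted p = 0.0653).

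**Figure D5:**
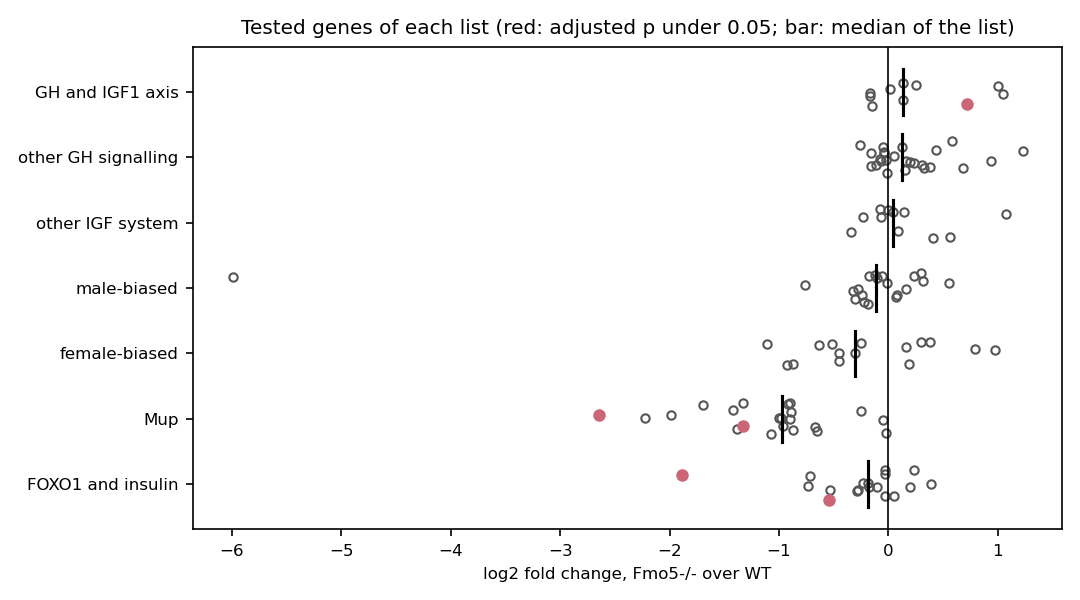
Log2 fold change, *Fmo5*-/- over WT (x axis), of every tested gene of the 10 axis genes and of the 6 other lists (rows), red where edgeR's adjusted p is under 0.05, with the median of each list as a bar and points spread vertically at random. The axis genes centre near 0 with *Igfbp2* called, and the *Mup* genes lie to the left with a median of -0.97.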

How the data were processed

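Liver RNA of 3 WT and 3 *Fmo5*-/- mice was sequenced as single reads of 75 bases by a company. The authors clipped adapters, mapped the reads to mm10 with STAR and deposited raw read counts per gene for each library, over both strands and for each strand. The annotation release is not given in the sources used here. In a table of the whole series, the deposited signal columns hold counts that the authors divided by DESeq2 size factors, a ratio that held for the both-strand counts in 100% of genes checked, to within 0.1%. The deposited columns for log2 fold change, standard error, Wald statistic (a score), p-value and adjusted p hold the authors' own comparison and were not used.

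Both-strand counts were joined by Ensembl identifier and tested in R 4.3.3 with edgeR 4.0.16 (filterByExpr with a minimum count of 10, TMM, robust quasi-likelihood fit and test, Benjamini-Hochberg adjustment over 16734 genes, called at an adjusted p under 0.05). Libraries were grouped by genotype, the sole factor, and without covariates. Standard errors are the log2 fold change over the square root of F. Each library held 66.2% to 69.2% of its reads on genes, and 10.4% to 13.1% had several mapping places, which the counting leaves out. Exon lengths and positions came from GENCODE vM21 (GRCm38, the build of mm10), matched by identifier, of which 53229 of 54446 had the same version. *Igfals* was not among these, so its position and exon length are those of another version of the gene than the one counted. RPKM and normalized counts were computed here. All 6 libraries were also analysed with DESeq2 1.42.0, with RLE factors, with the 20 most abundant genes kept out of the scaling, with low counts unfiltered, with a mean of 500 or more before the fit, with 1 strand, and without each library. The steps were tested on simulated data. The spread between mice of 1 genotype was typically 15.0% (biological coefficient of variation).

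Named are the 10 axis genes, *Fmo5*, from each of the 6 pathway lists the genes edgeR called, up to 6 by smallest p, or otherwise the 4 with the smallest p, and 3 genes nearest to *Igf1*. The rule does not cover the cell type markers. Others, such as *Clec4f*, *Jak2*, *Igfbp4*, *Mup3* and *Gadd45a*, were added with their values known, as is said beside them. A gene of the GH signalling list that this rule names is not reported here. The members and lists were chosen with earlier results of these data known. The lists were GH signalling, IGF system, male-biased, female-biased, *Mup*, and FOXO1 genes, and markers of 6 cell types.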

Additional observations from a re-analysis of the deposited data

How the results depend on the processing

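With another tool, scaling, filter or strand, the 10 axis genes kept their side of the threshold, and each kept its direction except *Stat5b*, whose log2 fold change was -0.0016 with DESeq2. *Igfbp2* was called in each of these 6 settings, with log2 fold changes of 0.70 to 0.78 and adjusted p of 2.39e-09 to 0.0178.

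With 1 library left out, *Igfbp2* ranged from 0.68 to 0.78 and was called in 3 of 6 fits, with adjusted p of 0.0143 to 0.0771, so that 0 to 1 of the axis genes were called. It lost the call without WT mouse 1 (0.72), without WT mouse 2 (0.68) and without *Fmo5*-/- mouse 1 (0.68). The ranges of the log2 fold changes that changed sign were -0.0196 to 0.28 for *Igf1* (negative without WT mouse 1), -0.0475 to 0.44 for *Igfals* (negative without WT mouse 1, and -0.0245 without *Fmo5*-/- mouse 3), -0.76 to 0.67 for *Igfbp1* (also -0.13 without WT mouse 2), -0.27 to 0.0106 for *Igfbp3* and -0.0780 to 0.0847 for *Stat5b* (also -0.0259 without *Fmo5*-/- mouse 1). The cause was not tested.

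Counts over all genes moved further: from 229 called to 1395 with DESeq2, 1989 with no filter on low counts, 53 with a mean of 500 or more before the fit, and 31 to 763 without 1 library. In the lists, DESeq2 called 2 genes of GH signalling, 2 male-biased, 1 female-biased, 13 *Mup* and 3 FOXO1 genes. With no filter, 2 genes of GH signalling, 1 of the IGF system, 1 male-biased, 4 female-biased, 7 *Mup* and 3 FOXO1 genes were called. With a mean of 500 or more before the fit, 0 *Mup* and 0 FOXO1 genes were called, of 14 *Mup* genes in that fit. Of the 4 genes of these lists that edgeR called in the report, *Mup10*, *Mup15* and *Fgf21* lay below that mean and were not in it, and *Trib1* lost its call. With 1 strand, 1 *Mup* gene, 1 FOXO1 gene and 0 of the other 4 lists were called. Without 1 library, 0 to 1 male-biased, 0 to 2 *Mup* and 0 to 3 FOXO1 genes were called. No paired analysis was possible because the labels give the mice no shared numbers. With 3 mice a genotype, changes of *Socs2*, *Cish* and *Igfbp1* below several-fold were not detectable, although every axis gene had at least 124 counts in every library.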
